A study of Drosophila melanogaster with 12 samples.

Results

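The larval serum protein and fat body protein genes of Drosophila melanogaster were described in whole flies that were 1 day old. The members were found by gene symbol, as the rows of both deposited tables named Lsp1alpha, Lsp1beta, Lsp1gamma, Lsp2, Fbp1 and Fbp2, and all 6 were found among the 16997 genes listed. RNA came from 12 samples of 10 flies each, in 3 groups of 4. Ub6-GG and Ub6-Stop flies were heterozygous for a transgene that encodes a tandem ubiquitin chain, and for the sqh-Gal4 driver, which is active in all tissues through development and in adults. The chain of Ub6-GG ends in the motif needed for conjugation onto other proteins, and that of Ub6-Stop lacks it. Control flies had the same background and the same driver without the transgene, and the labels give Attp40 as the insertion site for all 3 groups. The labels and methods do not state the sex of the flies.

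The value analysed was the authors' mean log2 CPM of each gene (reads of a gene scaled to the size of its library, on a log2 scale), given once per gene over all 12 libraries. It was the same in both tables for all 16997 genes. No value of a single sample or of a single group was analysed, so that every level below mixes Ub6-GG, Ub6-Stop and control flies, and neither the spread of a gene between replicates nor a difference between the groups is given here. No test was run. The libraries were primed at the poly(A) tail and give reads near the 3′ end of a transcript, a design in which a long transcript should not be counted more often than a short one. Levels are set side by side between genes on that basis, which was not tested on these data. The RNA integrity numbers in the paper differed between the samples, and their part in the levels was not tested.

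The depth was recovered from the low values. A gene with no read was listed at 0.25 log2 CPM, or 1.19 CPM, because a prior count of 2 reads per library of average size is part of the mean, and 2186 genes had this value. The 542 genes with a single read fell on 12 levels, 1 for each library, and these gave effective library sizes between 1055226 and 2366711 reads (median 1680809), 20213076 in all. The libraries recovered in this way could not be matched to samples. The 382 genes whose values lay in the range of 2 reads were not used to find the sizes, and all 382 lay within 1e-05 log2 units of a predicted level. A single read over all libraries was therefore worth 0.0495 CPM, and a gene with no read may have had up to 0.148 CPM, the value of 3 reads. Intervals given below are 95% intervals of the read count and cover counting error only. Each interval, in CPM or of a ratio, is for levels with that of a gene with no read subtracted. The dispersion that enters the means, a single value for all genes, was solved as 0.146, which stands for a variation of 38.2% in a gene between libraries beyond counting error. The value of each member is not known, and the intervals leave this variation out.

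Larval serum proteins are hexamerins, storage proteins that the larval fat body makes in the last larval instar and secretes into the haemolymph. Around pupariation, under the control of the steroid hormone ecdysone, fat body cells take them up again and keep them in granules, as a reserve of amino acids for building the adult. Larval fat body cells are not all lost at metamorphosis. Some persist as loose cells in the newly emerged adult and die over the first days of adult life, while the adult fat body forms from other precursors. In whole flies, fewer fat body cells and less RNA per cell cannot be told apart.

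All 6 genes were among the more abundant transcripts of these flies. Their mean log2 CPM had a median of 8.30 and ranged between 6.55 and 10.19, against a median of 2.64 over all genes. Of all listed genes, 8.08% were at or above the level of Lsp1gamma, the lowest of the 6. After the level of a gene with no read was subtracted, the 6 genes together held 2831 CPM, or 0.283% of the reads, equal to about 57228 reads over all libraries.

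**Figure D1:**
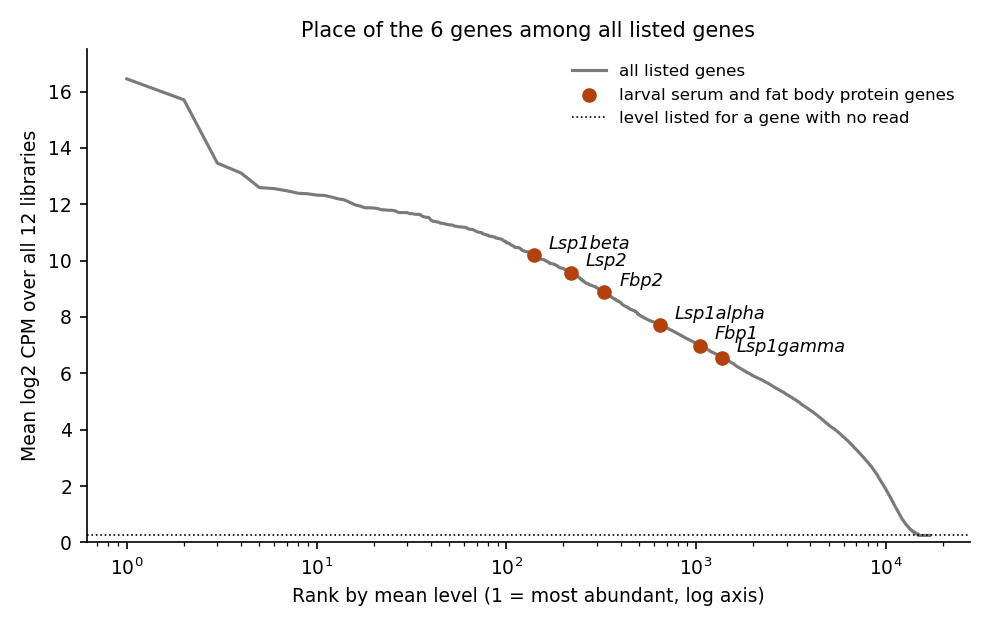
Mean log2 CPM over all 12 libraries (vertical axis) against rank by level (horizontal axis, logarithmic) for all 16997 genes (grey line), with the larval serum and fat body protein genes as points and the level of a gene with no read as a dotted line. The 6 points lie between ranks 140 (Lsp1beta) and 1374 (Lsp1gamma).

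Larval serum protein 1 is assembled from the alpha, beta and gamma subunits, which 3 genes on 3 chromosome arms encode. Lsp1beta, on arm 2L, was the most abundant of the 6 members at 1169 CPM, with about 23611 reads over all libraries (counting interval 1153 to 1183 CPM above the level of no read). It ranked 140 among all genes. Lsp1alpha, on the X chromosome, had 210.3 CPM, with about 4227 reads (interval 203 to 216 CPM), and ranked 648. Lsp1gamma, the third protein-coding gene of arm 3L in RefSeq order, had 93.8 CPM, with about 1872 reads (interval 88.5 to 96.9 CPM), and ranked 1374.

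The 3 subunit transcripts were thus present in unequal amounts. Lsp1beta exceeded Lsp1alpha by 2.48 on the log2 scale, and with the level of no read subtracted the ratio was 5.59 (counting interval 5.41 to 5.77). Lsp1beta exceeded Lsp1gamma by 3.64 on the log2 scale, a ratio of 12.6 after the same subtraction (counting interval 12.0 to 13.2). Between Lsp1alpha and Lsp1gamma the difference was 1.16 on the log2 scale and the ratio 2.26 (counting interval 2.14 to 2.39). How far these ratios vary between libraries is not known from a pooled value. The annotated 3′ untranslated regions of Lsp1alpha and Lsp1gamma are only 82 and 97 bases long in the Ensembl annotation of release 6, and whether reads in coding sequence were shared between the subunit genes was not tested. The deposited values are RNA levels, so the subunit composition of the protein was not measured.

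Lsp2 encodes the other larval serum protein, a hexamer of a single kind of subunit that is also made in the adult fat body. It had 764 CPM, with about 15417 reads over all libraries (interval 751 to 775 CPM), and ranked 219. Its level lay 0.61 log2 units below that of Lsp1beta, the ratio of Lsp1beta to Lsp2 being 1.53 (counting interval 1.501 to 1.56). The 3 Lsp1 genes and Lsp2 together contained 78.9% of the reads of the 6 members, with 41.3% from Lsp1beta and 26.9% from Lsp2.

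Fbp1 encodes a protein that the ecdysone signal induces in the larval fat body and that serves as the receptor for the uptake of larval serum protein. It had 126 CPM, with about 2527 reads (interval 120.2 to 130.0 CPM), and ranked 1051, between Lsp1alpha and Lsp1gamma. Lsp2 exceeded it by 2.60 on the log2 scale, a ratio of 6.10 (counting interval 5.85 to 6.37). The difference between Fbp1 and Lsp1gamma, the next below it in order, was the smallest between neighbours in the order of the 6, at 0.43 on the log2 scale with a ratio of 1.35 (counting interval 1.27 to 1.43).

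Fbp2 encodes a fat body protein of the alcohol dehydrogenase family and is not a hexamerin. It had 475 CPM, with about 9574 reads (interval 464 to 483 CPM), ranked 329 and held 16.7% of the reads of the 6 members. It exceeded Fbp1 by 1.91 on the log2 scale, a ratio of 3.79 (counting interval 3.63 to 3.96). In descending order the members were Lsp1beta, Lsp2, Fbp2, Lsp1alpha, Fbp1 and Lsp1gamma, and no counting interval of a ratio between neighbours in this order included 1. These intervals leave out the variation between libraries, so how firm the order of the means is was not measured. Whether this order holds in each library is not known.

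The gene models of the members differ in size and are simple in structure. In the Ensembl annotation of release 6 of the genome (BDGP6) the coding sequence spans 816 codons in Lsp1alpha, 789 in Lsp1beta, 772 in Lsp1gamma and 701 in Lsp2. Fbp1 has 1029 codons and Fbp2 has 256. No transcript of a member has more than 2 exons, and those of Lsp2 have 1. The authors aligned to the earlier build dm3, so that no coordinates are given here.

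Reads of 2 members could be shared with another gene. The last exon of Fbp2 overlaps CG42847, which lies on the same strand and was listed at 3.83 log2 CPM. The last exon of Lsp2 overlaps the antisense gene CR11538, which was listed with no read. The other 4 members overlap no gene in this annotation. How the authors' counting treated a read within both genes is not given in the sources used here, and the part of such overlaps in the levels was not tested.

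The genes next to the 6 on their chromosomes were mostly far lower than the members, as were most genes. The RefSeq annotation of release 6 gave 35 protein-coding genes within 3 places of a member on either side, all of which had a level in the tables. Their median was 3.41 log2 CPM, against 2.64 over all genes. None of the 35 exceeded its own member, and 4 were at or above the level of Lsp1gamma, namely IA-2, Aldh, yps and CG42258. Of all listed genes, 8.08% were at or above that level. IA-2, 3 places from Lsp1beta, was the highest of the 35 at 9.57 log2 CPM. Closest in level to their own members were Pdk1, 3 places from Lsp1gamma, at 6.55 log2 CPM, and Aldh, 3 places from Fbp2, at 8.65 log2 CPM. Pdk1 (6.550) and Lsp1gamma (6.552) differed by less than the counting error, so which of them was higher cannot be told. The members were proposed with results of these libraries known, so their standing above the neighbours is a description.

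**Figure D2:**
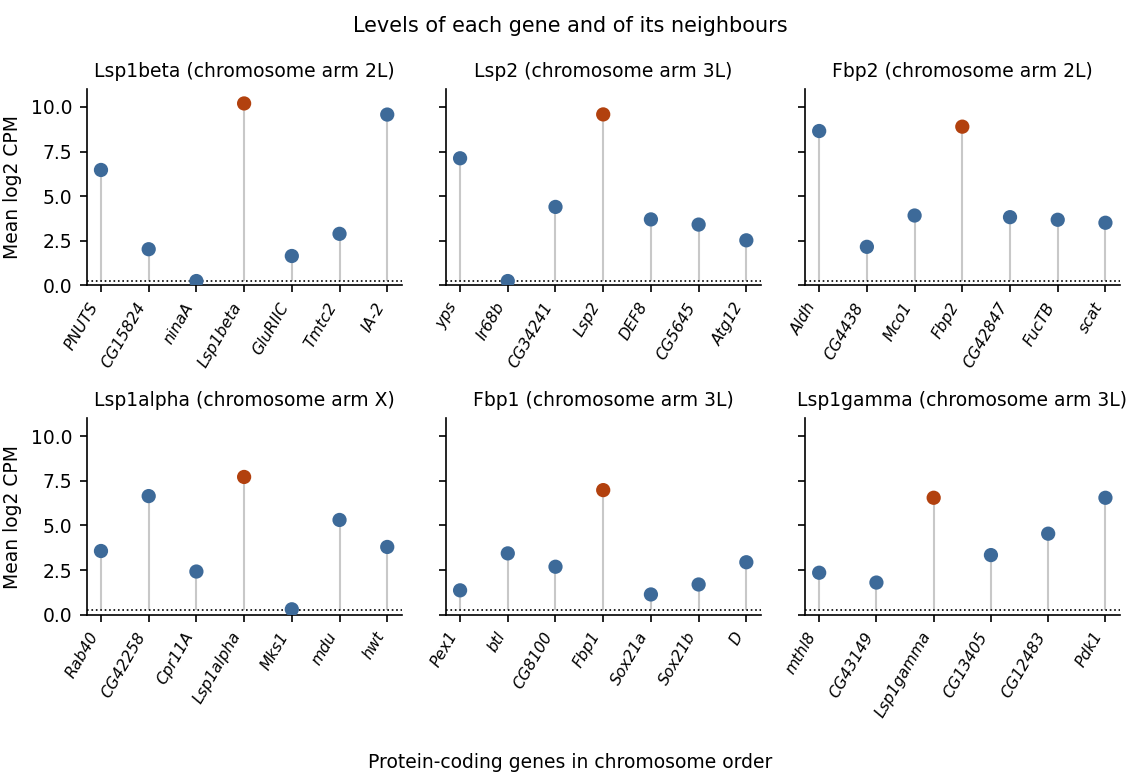
Mean log2 CPM over all 12 libraries (vertical axis) of each of the 6 genes (orange points) and of the protein-coding genes up to 3 places away in chromosome order (blue points), 1 panel per gene, with the level of a gene with no read as a dotted line. No neighbour lies above the gene in the centre of its panel, and Pdk1 (6.55) and Aldh (8.65) come closest to theirs. Pdk1 differs from Lsp1gamma by less than the counting error.

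Genes that mark other larval tissues were near the level of no read. The salivary glands of the late larva make glue proteins from the Sgs genes. Of these 6 genes, Sgs3 had no read, and the 6 together had about 7 reads over all libraries, with the highest, Sgs5, at 0.37 log2 CPM. The larval cuticle protein genes Lcp1, Lcp2, Lcp3 and Lcp4 had about 26 reads together, of which about 19 came from Lcp1 at 1.10 log2 CPM and 1 from Lcp3. The 6 larval serum and fat body protein genes had about 57228 reads. Above 1 log2 CPM were 0 of the 6 glue genes and 1 of the 4 cuticle genes, against 69.4% of all genes. Which cells held the transcripts of the members was not measured.

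Genes used by the fat body of larvae and adults alike covered a wide range. All 14 were above 1 log2 CPM, as were 69.4% of all genes, and their median was 6.23. Of the 14, 7 were at or above the level of Lsp1gamma, against 8.08% of all genes. The highest was apolpp, which encodes the main lipid carrier of the haemolymph, at 1304 CPM, slightly above Lsp1beta. Lsd-2, which encodes a protein of the lipid droplet surface, had 368 CPM, between Fbp2 and Lsp1alpha. The lowest was Lsd-1, another lipid droplet protein gene, at 9.01 CPM. Many of these genes are also active in other tissues, and whether transcripts of the 6 members lay in persisting larval fat body cells or in adult fat body was not measured.

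The yolk protein genes, which the fat body and ovary of adult females express, were more abundant than most members. Yp1 had 1866 CPM and ranked 82, above all 6 members, while Yp2 and Yp3 had 948 and 950.0 CPM, between Lsp1beta and Lsp2. The 3 yolk protein genes together held 0.376% of the reads.

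**Figure D3:**
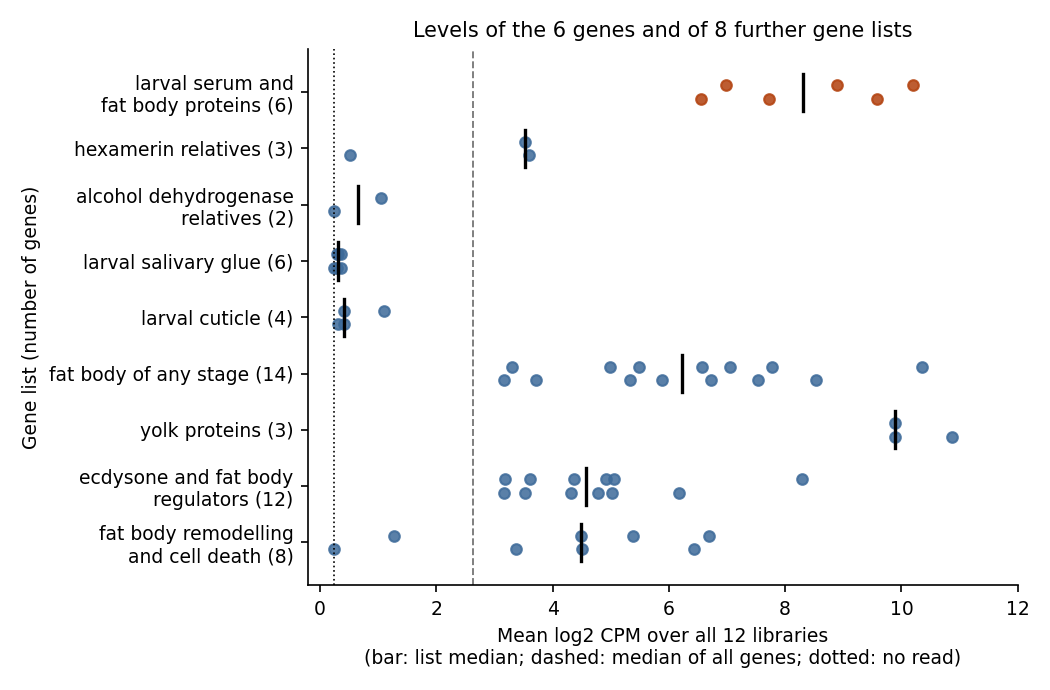
Mean log2 CPM over all 12 libraries (horizontal axis) of the 6 genes (orange) and of the genes of 8 further lists (blue), 1 point per gene, with black bars at the list medians, a dashed line at the median of all genes (2.64) and a dotted line at the level of a gene with no read (0.25). The 6 genes lie between 6.55 and 10.19, and the yolk protein genes between 9.89 and 10.87. Of the 14 fat body genes of any stage, 7 are at or above the lowest of the 6, and apolpp (10.35) is above all 6. Eip93F (8.29) and hid (6.69) also lie above the lowest of the 6. The larval glue and cuticle genes lie near the dotted line.

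Relatives of the members by sequence family were listed at far lower levels. Hexamerins belong to the same protein family as the prophenoloxidases, the enzymes of melanin formation in blood cells. PPO1 had 12.1 CPM, PPO2 had 11.5 CPM and PPO3 had 1.43 CPM, the last with about 5 reads over all libraries. Adh, which encodes alcohol dehydrogenase and is related to Fbp2, was listed at 1.05 log2 CPM with about 18 reads, and Adhr had no read. Fbp2 and Adh both have 256 codons. Adh and Adhr overlap each other on the same strand and osp on the other strand, also within their last exons, and osp was listed at 6.46 log2 CPM. The part of these overlaps in the low levels of Adh and Adhr was not tested. The listed levels of Adh and Adhr may therefore not stand for the abundance of their transcripts.

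The ecdysone pathway and the regulators of fat body genes were expressed at moderate levels. All 12 listed genes were above 1 log2 CPM, as were 69.4% of all genes, and their median was 4.57. Of the 12, 1 (8.33%) was at or above the level of Lsp1gamma, near the share of 8.08% over all genes. That gene was Eip93F, a transcription factor gene induced by ecdysone that acts in the death and remodelling of larval tissues, at 314 CPM. The ecdysone receptor gene EcR and its partner usp had 20.6 and 32.5 CPM. The lowest was srp, which encodes a GATA factor needed for fat body formation, at 8.97 CPM.

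The 8 genes of tissue remodelling and cell death had a median of 4.49 log2 CPM. Mmp1 and Mmp2, matrix metalloproteinases that act when the larval fat body breaks up into single cells, had 41.7 and 22.4 CPM. Among the genes that trigger apoptosis hid had 104 CPM, the highest of this list, whereas rpr had 2.43 CPM and grim had no read. The caspase genes Dronc and Drice had 10.4 and 22.6 CPM, and Diap1, an inhibitor of apoptosis, had 86.6 CPM. These genes are used in many tissues, and in RNA of whole flies their levels cannot be assigned to fat body cells.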

How the data were processed

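Libraries were built from total RNA of whole flies with a poly(A)-primed 3′ kit. The authors used CASAVA 1.8.2 to de-multiplex reads and STAR to map them (build dm3), then tabulated them per gene region and compared the groups in edgeR. The 2 deposited tables give for each gene the authors' mean log2 CPM over all libraries and, in 4 further columns, the log2 fold change, likelihood ratio, p-value and FDR of a comparison with control. These 4 columns hold the study's own comparisons and were not used. The tables have 0 columns of single samples.

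Levels were taken as deposited and as CPM on the linear scale. Library sizes and a common dispersion (0.146) were solved in Python 3.11.15 (scipy 1.17.1) from genes with 0 or 1 read, with a prior count of 2. Reads of a gene over all libraries are its CPM minus the level of no read, times all reads, which is approximate. These values sum to 1005872 CPM over all genes. Intervals are exact Poisson or Clopper-Pearson.

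The members and the 8 further lists (52 genes, all found by symbol) were chosen with earlier results of these data known. The text names all members, every prophenoloxidase and alcohol dehydrogenase gene, and the highest and lowest gene of each other list. Other listed genes are named for their role and were chosen after their values were seen, as were the neighbours named.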

Additional observations from a re-analysis of the deposited data

How the results depend on the processing

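The other table lists the same mean for every gene, so reading from it could not change the 6 members' levels. Subtracting the level of a gene with no read moved all 6 levels and all 10 differences between members by no more than the counting error. That level, 1.19 CPM, is small beside the lowest member at 93.8 CPM, so neither setting was a strong check. The share of genes ranked above a member depends on which genes are ranked, while the rank itself does not. Among all listed genes it was 0.818% for Lsp1beta, 1.28% for Lsp2, 1.93% for Fbp2, 3.81% for Lsp1alpha, 6.18% for Fbp1 and 8.08% for Lsp1gamma. Among the 14811 genes with at least 1 read it was 0.938% for Lsp1beta, 1.47% for Lsp2, 2.21% for Fbp2, 4.37% for Lsp1alpha, 7.09% for Fbp1 and 9.27% for Lsp1gamma. Among the 11797 genes above 1 log2 CPM it was 1.18% for Lsp1beta, 1.85% for Lsp2, 2.78% for Fbp2, 5.48% for Lsp1alpha, 8.90% for Fbp1 and 11.6% for Lsp1gamma. These shifts follow from the smaller number of genes ranked. Planned comparisons of protein sequences between members were not run, since no protein sequences were used here. No replicate could be left out, and no paired analysis was possible because each gene has 1 value pooled over all libraries.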
